A study of Homo sapiens with 12 samples.

Results

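The genes described here are 10 noncoding small nucleolar RNA (snoRNA) host genes, GAS5, ZFAS1, SNHG1, SNHG5, SNHG6, SNHG7, SNHG8, SNHG12, SNHG15 and SNHG16. They were taken by gene name from the study's tables, and all 10 were among the 23195 genes listed for the Nutlin-3a comparisons and in the other tables too. The study measured polyA RNA in HCT116, an established line of human colorectal carcinoma cells whose p53 is intact. Cells received siRNA, either a control (siControl) or one that targets the transcription factor RFX7 (siRFX7), and were then kept for 24 h in 10 µM Nutlin-3a, which inhibits MDM2 and so activates p53, or in DMSO as the control. Each siRNA was combined with each treatment, which makes 4 groups of 3 replicates (12 libraries), and each library was made from 500 ng of total RNA. Nothing in the labels says that the replicates were separate cultures, so the p-values measure the spread between these samples, which may be technical. How many siRNA sequences targeted RFX7 is not given in the sources used here.

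The labels were checked with the siRNA target and with p53 targets. RFX7 had group means of 944 normalized counts with DMSO and 1332 with Nutlin-3a under siControl, and 185 with DMSO and 302 with Nutlin-3a under siRFX7. MDM2 and CDKN1A rose with Nutlin-3a by 3.99 and 4.46 (log2) in siControl, and by 3.30 and 3.53 in siRFX7, per the authors' deposited tables. These rises differed between the siRNAs by -0.69 and -0.93 (adjusted p 1.90e-12 and 7.17e-10 by the z test). With siRFX7, MDM2 had 0.49 in DMSO and -0.21 in Nutlin-3a, and CDKN1A had 1.29 and 0.35, by the authors' deposited tables. The 2 p53 targets therefore did not behave alike under both siRNAs. All 6 listed epithelial markers were present, with mean normalized counts from 2585 for CDH1 to 80338 for KRT8. Of 9 markers of other cell types, 4 were not among the listed genes, 4 had means of 1.66 to 13.5, and COL1A1 had a mean of 441. The data hold group statistics, so a replicate's own value cannot be shown.

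A snoRNA host gene is transcribed as a longer RNA whose introns carry snoRNAs. Box C/D snoRNAs guide ribose methylation of ribosomal RNA and box H/ACA snoRNAs guide its pseudouridylation. In the noncoding hosts the spliced exons encode no long protein. Several of these spliced RNAs begin with a terminal oligopyrimidine (TOP) sequence, as ribosomal protein mRNAs do, and are degraded by nonsense-mediated decay (NMD) while they are being translated. They are therefore known to accumulate when translation or NMD slows. GAS5 was named for its accumulation in growth-arrested cells.

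In RefSeq (GRCh38.p14) each of the 10 genes held at least 1 snoRNA gene, 36 in all. The 6 hosts of mainly box C/D snoRNAs were GAS5 with 10 of them (SNORD74 to SNORD81, SNORD44 and SNORD47) and 1 box H/ACA gene, SNHG1 with 8 (SNORD22 and SNORD25 to SNORD31), ZFAS1 with 3, SNHG16 with 3, SNHG5 with 2 and SNHG6 with 1. The 4 hosts of mainly box H/ACA snoRNAs were SNHG12 with 3 of them and 1 box C/D gene, SNHG7 with 2, SNHG8 with 1 and SNHG15 with 1. These snoRNAs lack a polyA tail, and only 4 of the 36 had a row in the tables.

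The bases around the RefSeq start are shown because a TOP sequence, where an RNA has one, lies at its first bases. RefSeq promoter entries matched 8 of the 10 genes. The RefSeq start of GAS5 lies 163 bases upstream of the GENCODE 29 gene used for its length here, so the annotations disagree and its window is not shown. The start of SNHG12 lies 1259 bases and that of ZFAS1 464 bases inside the GENCODE gene. Each line gives 30 bases 5′ to 3′ on the gene's strand, 12 before the annotated start and 18 from it onward, and capitals mark each run of a C followed by at least 4 C or T.
ZFAS1 (chr20:49278630-49278659, plus strand): aagccattcgttCTTTCgcgtctgcggtgc
SNHG5 (chr6:85678716-85678745, minus strand): gcgcacttcggtCTTTTacgtcggCCTTCg
SNHG12 (chr1:28581856-28581885, minus strand): cggcttcagcgCCCTTTCTCCCCgccgcat
SNHG7 (chr9:136728167-136728196, minus strand): tCCCTTCTCgtCCTCTgcgtgcgccggagg
SNHG8 (chr4:118278750-118278779, plus strand): gcctcggCCTTTCacattcgggaagcgtcg
SNHG16 (chr17:76557752-76557781, plus strand): aggggcggtctcgcgttCTTTTCgaggtcg
SNHG1 (chr11:62855868-62855897, minus strand): gggagattcgttctcatttttctactgctc

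A C exactly at the annotated start followed by 4 C or T was found in ZFAS1, SNHG5 and SNHG12, which is 3 of 8. The same letters at the start were found in 4.04% of 27305 RefSeq promoters and in 42 of 62 ribosomal protein genes with an entry (67.7%). With the C allowed within 10 bases of the annotated start, SNHG7, SNHG8 and SNHG16 also matched, giving 6 of 8, against 33.3% of all promoters and 88.7% of ribosomal protein genes. For SNHG1 these letters were not in the window, and for GAS5 nothing can be read from a window outside the GENCODE gene, although it counts among the 8. In the 300 bases around the start, searched on both strands, the E-box CACGTG was found in SNHG7 only among the 8, and in 7.43% of all promoters. The X-box letters GTTGCCA and GTTGCTA, of the kind bound by RFX factors, were found in 0 of the 8, and in 4.13% and 2.92% of all promoters. The p53 response element, searched by its consensus, was also found in 0 of the 8 and in 0.0293% of all promoters. With shares this low, 0 of 8 is the usual outcome, so the X-box and p53 searches cannot show that such sites are lacking.

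Most of the hosts were well-expressed genes. Per kb of annotated exon (the union of a gene's GENCODE 29 exons), SNHG6 had the highest level in siControl DMSO, at 2909 normalized counts per kb. SNHG8 followed at 1363, GAS5 at 1044, SNHG1 at 1008, ZFAS1 at 800, SNHG16 at 657, SNHG5 at 436 and SNHG7 at 319. SNHG15 at 159 and SNHG12 at 113 per kb were the lowest, and the other 8 lay above 218, the median of 12461 genes whose mean normalized count reached 100. These genes have many annotated isoforms, 29 for GAS5 and 25 for SNHG1, so the length is uncertain. With the median transcript length, GAS5 had rank 2 and SNHG8 rank 5, and SNHG6 and the lowest 5 kept their ranks.

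The spread between replicates that the authors' standard errors imply was 4.08% of the mean for SNHG16, 4.29% for SNHG1 and 5.53% for SNHG5. It was 6.18% for GAS5, and it was at most 9.04%, the value of ZFAS1, for SNHG6, SNHG12, SNHG7 and SNHG15 too. SNHG8 stood apart at 16.9%, above 99.0% of the genes with a mean of at least 100, whose median was 6.40%. Its values are therefore the least certain of the 10.

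**Figure D1:**
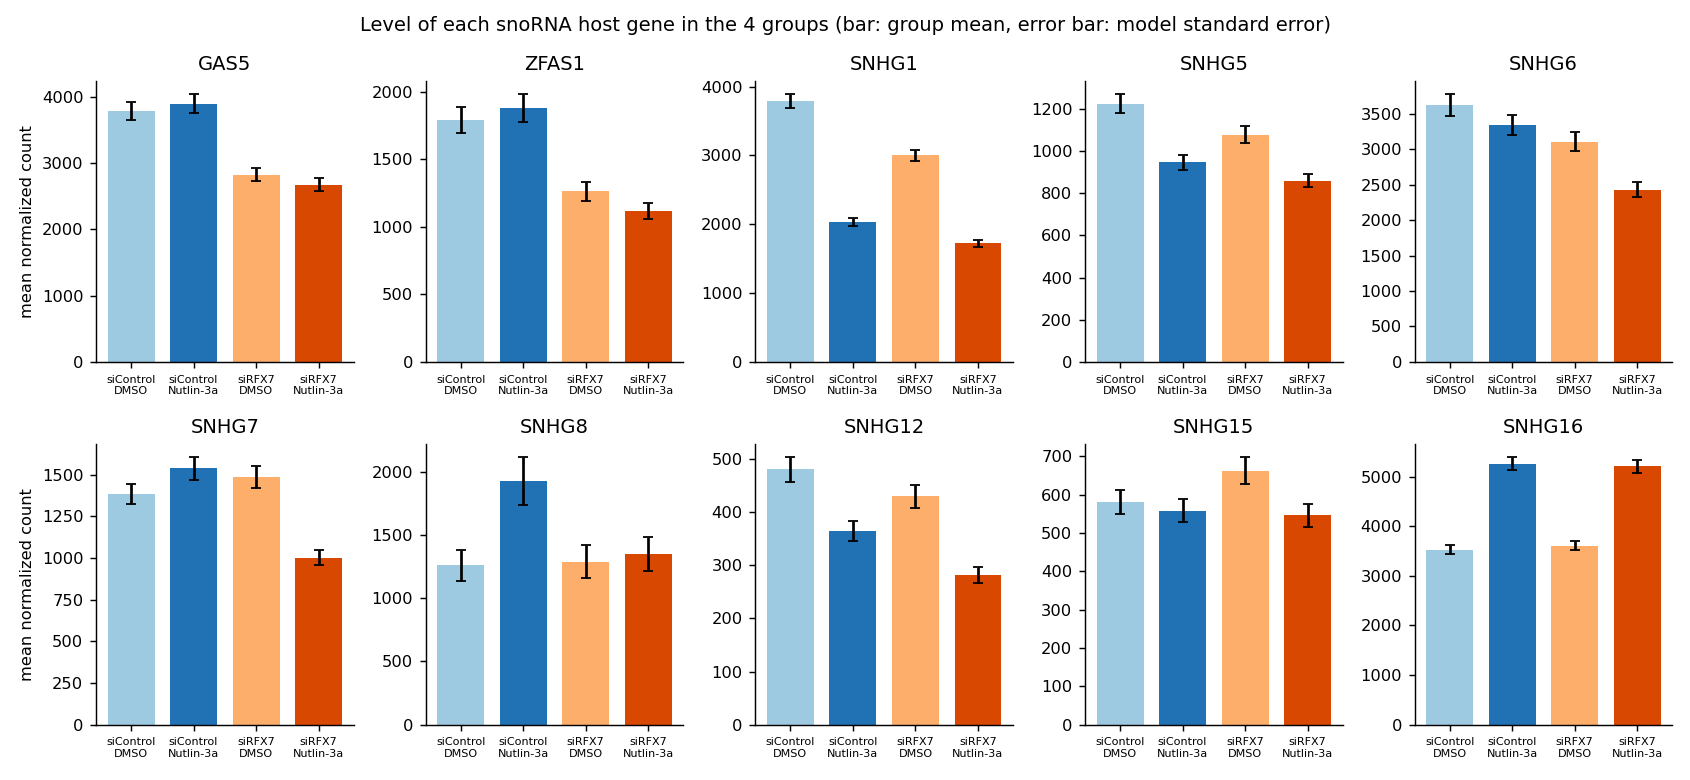
Mean normalized count of each of the 10 host genes in the 4 groups, with the model standard error (n = 3 per group); each panel has its own axis from 0. GAS5 and ZFAS1 are lower in both siRFX7 groups, SNHG1 is lower in both Nutlin-3a groups, SNHG16 is higher in both, and SNHG7 is low in siRFX7 Nutlin-3a.

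The knockdown comparisons ask which host RNAs change when RFX7 is depleted, with p53 activated or not. With siRFX7 in DMSO, GAS5, ZFAS1, SNHG1, SNHG5 and SNHG6 fell, and no host rose. The 5 hosts called lower are 5 of 10, against 15.5% of all 20026 genes called lower there, 13.5% called higher and 29% called in all. Among the 12463 genes with a mean of at least 100 it was 23.4%, and among the 242 noncoding genes of that level (biotypes lincRNA, antisense and processed transcript) it was 13.2%. In Nutlin-3a, GAS5, ZFAS1, SNHG1, SNHG6, SNHG7, SNHG8 and SNHG12 fell with siRFX7, and again no host rose. These are 7 of 10, against 13.6% of 19393 genes called lower (15.0% higher, 28.6% in all), 19.3% of genes with a mean of at least 100 and 22.7% of the noncoding ones. GAS5, ZFAS1, SNHG1 and SNHG6 were called lower in both treatments, which have no library in common, as were 8.34% of the genes in both tables, and 0 hosts but 8.2% of genes were higher in both. Each library holds RNA of many cells, so fewer cells with a transcript and less of it per cell cannot be told apart. Normalized counts are relative to the other RNA of a library, so a change in total RNA per cell would not show. The median log2 fold change of the 10 was -0.17 in DMSO and -0.42 in Nutlin-3a, beside 0.00 in each over all genes of those tables.

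ZFAS1 (ENSG00000177410), an RNA that starts next to ZNFX1 on the other strand, had the largest falls. Its group means were 1794 ± 96.8 normalized counts with DMSO and 1881 ± 101 with Nutlin-3a under siControl, and 1264 ± 69.1 with DMSO and 1117 ± 61.4 with Nutlin-3a under siRFX7 (model standard error, n = 3). Both siRFX7 groups lay below both siControl groups, and within each siRNA the treatments differed by less than 2 standard errors. The ratio of siRFX7 to siControl was 0.705 in DMSO (log2 -0.50, standard error 0.11, DESeq2 adjusted p 4.94e-05), as the authors' deposited table gives. In Nutlin-3a the authors' deposited table gave 0.594 (log2 -0.75 with a standard error of 0.11, DESeq2 adjusted p 3.65e-10).

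GAS5 (ENSG00000234741) had the same order of groups. It was at 3789 ± 140 normalized counts with DMSO and 3896 ± 144 with Nutlin-3a under siControl, and 2830 ± 105 with DMSO and 2678 ± 100.04 with Nutlin-3a under siRFX7. Again the siRNA separated the groups and the treatment did not, by more than 2 standard errors. The authors' deposited tables gave log2 fold changes with siRFX7 of -0.42 in DMSO and -0.54 in Nutlin-3a (standard error 0.08 each, DESeq2 adjusted p 3.81e-07 and 2.84e-11).

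SNHG1 (ENSG00000255717) fell with siRFX7 by less, and its levels were set apart mainly by treatment, as given below. In the authors' deposited tables its log2 fold changes with siRFX7 were -0.34 in DMSO and -0.24 in Nutlin-3a (DESeq2 adjusted p 1.25e-08 and 0.00028). SNHG6 (ENSG00000245910) was at 3627 ± 151 normalized counts with DMSO and 3349.6 ± 139.5 with Nutlin-3a under siControl, and 3111 ± 129.9 with DMSO and 2434 ± 102 with Nutlin-3a under siRFX7. The siRFX7 Nutlin-3a group of SNHG6 lay below the other groups, whose neighbours in order differed by less than 2 standard errors. Its log2 fold change with siRFX7 was -0.46 in Nutlin-3a (DESeq2 adjusted p 9.71e-07, standard error 0.09) and -0.22 in DMSO (DESeq2 adjusted p 0.0342), per the authors' deposited tables. SNHG5 (ENSG00000203875) had -0.18 in DMSO (DESeq2 adjusted p 0.0434) and -0.14 in Nutlin-3a (95% interval -0.29 to 0.01), as given by the authors' deposited tables. The DMSO calls of SNHG5 and SNHG6 were lost when the groups were scaled to equal totals (-0.13 and -0.16, adjusted p 0.198 and 0.141 by the z test), which left 3 hosts lower there.

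SNHG7, SNHG8 and SNHG12, all hosts of box H/ACA snoRNAs, fell with siRFX7 in Nutlin-3a and were not called in DMSO. Their log2 fold changes in Nutlin-3a were -0.62, -0.51 and -0.37, by the authors' deposited table (DESeq2 adjusted p 4.21e-10, 0.0398 and 0.0028). In DMSO the same 3 had 0.10, 0.04 and -0.16, with 95% intervals of -0.07 to 0.28, -0.36 to 0.43 and -0.36 to 0.03, from the authors' deposited table. The difference between the treatments was called for SNHG7 only (SNHG8 and SNHG12 adjusted p 0.327 and 0.544 by the z test). By class of snoRNA, 5 of 6 box C/D hosts and 0 of 4 box H/ACA hosts were called lower in DMSO, and 4 of 6 and 3 of 4 in Nutlin-3a. The difference between the classes was not tested. SNHG8's call in Nutlin-3a was lost on scaling to equal totals (-0.49, adjusted p 0.053 by the z test).

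The 2 hosts with no call for siRFX7 in either treatment were SNHG15 and SNHG16. SNHG15 (ENSG00000232956) had 0.19 in DMSO (95% interval -0.02 to 0.40) and -0.03 in Nutlin-3a (-0.25 to 0.18), per the authors' deposited tables. SNHG16 (ENSG00000163597) had 0.03 in DMSO (-0.07 to 0.14) and -0.01 in Nutlin-3a (-0.11 to 0.09), as given by the authors' deposited tables, the latter 0.01 after scaling to equal totals. SNHG16 is the most precisely measured of the 10, so its intervals leave room for changes of at most 0.14 (log2).

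**Figure D2:**
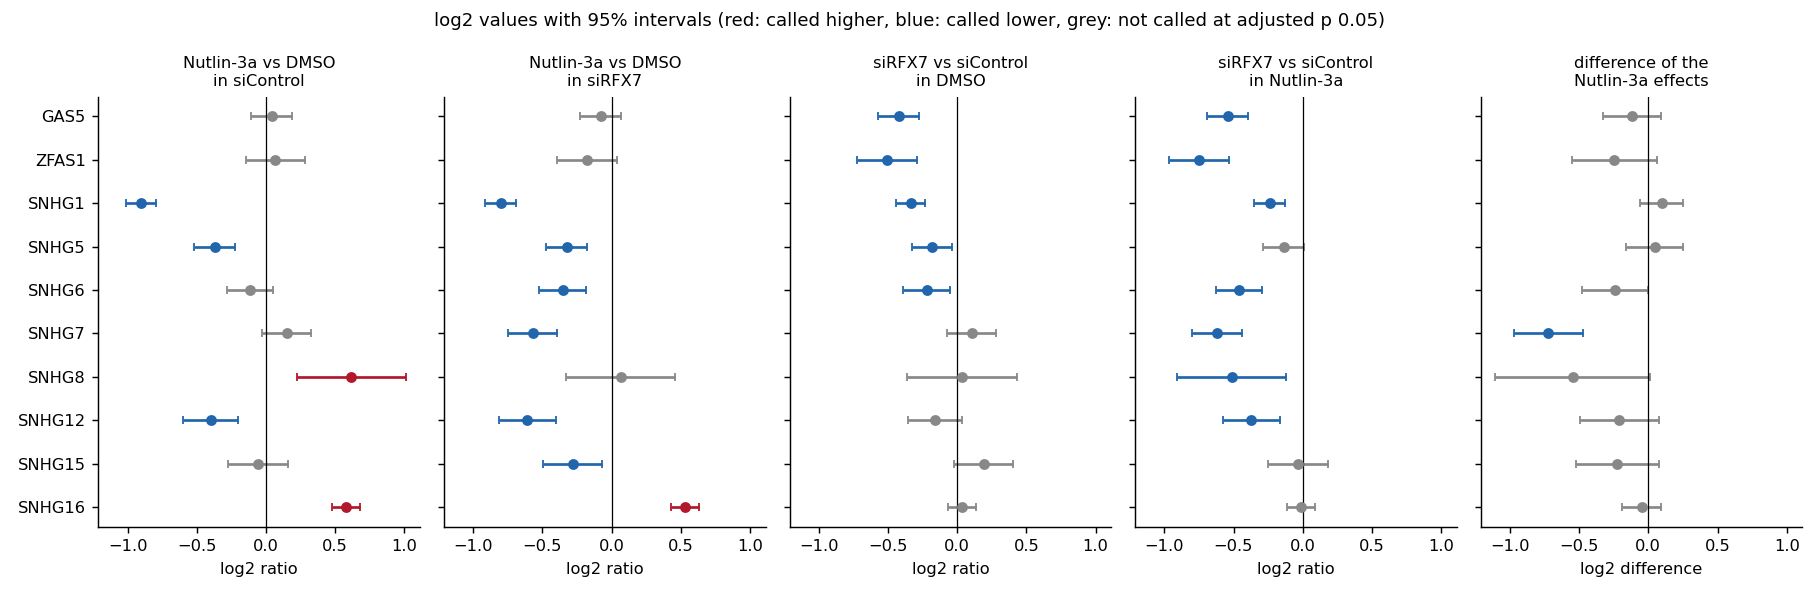
log2 values of the 10 host genes with 95% intervals, 1 panel for each of the 4 deposited comparisons and 1 for the difference between the Nutlin-3a effects in siRFX7 and siControl. In the siRFX7 panels 5 and 7 genes are called lower and 0 higher; in the panel of differences only SNHG7 is called.

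The Nutlin-3a comparisons ask how the hosts respond to p53 activation. In siControl cells the hosts moved in different directions: SNHG1, SNHG5 and SNHG12 fell, SNHG8 and SNHG16 rose, and the remaining 5 were not called. The 5 called hosts compare with 43.2% of all 23195 genes, 22% higher and 21.2% lower. Among genes with a mean of at least 100, as all 10 hosts are, 65.5% were called, and among the noncoding ones 63.2%, so the share of hosts called was not above the background. In siRFX7 cells SNHG1, SNHG5, SNHG6, SNHG7, SNHG12 and SNHG15 fell and SNHG16 rose. The 7 called compare with 41.4% of all genes, the 6 lower with 19.7% and the 1 higher with 21.7%. Among genes with a mean of at least 100 it was 62.7% (28.7% lower), and among the noncoding ones 58.7% (28.5% lower), so the share called in all was near the background of that level. SNHG1, SNHG5 and SNHG12 were lower under both siRNAs, as were 15.9% of all genes, and SNHG16 was higher under both, as were 17.2%. The median log2 fold change of the 10 was -0.01 under siControl and -0.30 under siRFX7, beside 0.02 and -0.02 over all genes.

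SNHG1, the host of a row of box C/D snoRNAs, had the largest response. Its group means were 3785 ± 100.2 normalized counts in siControl DMSO, 2998 ± 80.7 in siRFX7 DMSO, 2028 ± 56.6 in siControl Nutlin-3a and 1720.2 ± 48.9 in siRFX7 Nutlin-3a. All neighbours in that order differed by more than 2 standard errors. With Nutlin-3a the ratio was 0.536 in siControl (log2 -0.90, standard error 0.06, DESeq2 adjusted p 1.20e-57), per the authors' deposited table. In siRFX7 the authors' deposited table gave 0.574 (log2 -0.80, standard error 0.06, DESeq2 adjusted p 1.89e-44).

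SNHG16, the host of the SNORD1 family, went the other way. It was at 3520.4 ± 89.7 normalized counts in siControl DMSO and 3605 ± 91.7 in siRFX7 DMSO, against 5260.2 ± 131 in siControl Nutlin-3a and 5210.2 ± 129.6 in siRFX7 Nutlin-3a. Both Nutlin-3a groups lay above both DMSO groups, and the siRNAs did not differ by more than 2 standard errors within a treatment. The rise was 0.58 under siControl and 0.53 under siRFX7 (log2), as given by the authors' deposited tables (standard error 0.05 each, DESeq2 adjusted p 2.62e-28 and 4.97e-24).

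SNHG5 and SNHG12 fell with Nutlin-3a by less. SNHG5 was at 1225 ± 44.0 and 1078 ± 39.3 normalized counts in the siControl and siRFX7 DMSO groups and at 947 ± 35.04 and 859.8 ± 32.2 in the corresponding Nutlin-3a groups. Its log2 fold changes with Nutlin-3a were -0.37 under siControl and -0.33 under siRFX7 (DESeq2 adjusted p 2.82e-06 and 6.45e-05), by the authors' deposited tables. SNHG12 (ENSG00000197989) was at 481 ± 23.2 and 430.1 ± 21.1 in the DMSO groups and at 365 ± 18.4 and 282 ± 15.0 in the Nutlin-3a groups, siControl first. The authors' deposited tables gave it -0.40 under siControl and -0.61 under siRFX7 (DESeq2 adjusted p 0.000278 and 3.05e-08). For both genes the Nutlin-3a groups lay below the DMSO groups.

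GAS5 and ZFAS1, which responded to the siRNA, were not called for Nutlin-3a under either siRNA. GAS5 had 0.04 in siControl (95% interval -0.11 to 0.19) and -0.08 in siRFX7 (-0.23 to 0.07), per the authors' deposited tables. ZFAS1 had 0.07 (-0.15 to 0.28) and -0.18 (-0.40 to 0.04), as given by the authors' deposited tables. SNHG15 was at 581 ± 31.0 normalized counts with DMSO and 558 ± 29.9 with Nutlin-3a under siControl, and 663 ± 34.9 with DMSO and 546 ± 29.3 with Nutlin-3a under siRFX7. No neighbours in its order of groups differed by 2 standard errors, while its fall with Nutlin-3a in siRFX7 was called at -0.28 (DESeq2 adjusted p 0.0254), per the authors' deposited table.

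Whether the Nutlin-3a effect differed between the siRNAs was tested as an interaction. It was called for 1 of the 10, SNHG7, against 6.2% of all 23195 genes (2.92% below 0, as SNHG7 was, and 3.28% above 0) and 10.6% of genes with a mean of at least 100. SNHG7 (ENSG00000233016, chr9:136721366-136728184, minus strand, GRCh38), the host of SNORA17A and SNORA17B, was at 1385 ± 61.7 normalized counts with DMSO and 1537 ± 68.0 with Nutlin-3a under siControl, and 1489 ± 66.0 with DMSO and 1002 ± 45.6 with Nutlin-3a under siRFX7. The siRFX7 Nutlin-3a group was low and the other groups differed from their neighbours by less than 2 standard errors. With Nutlin-3a its log2 fold change was 0.15 in siControl (DESeq2 adjusted p 0.182) and -0.57 in siRFX7 (DESeq2 adjusted p 2.93e-09), as given by the authors' deposited tables. The difference was -0.72 (standard error 0.13, 95% interval -0.97 to -0.47, adjusted p 1.95e-06 by the z test).

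SNHG8 (ENSG00000269893), the host of SNORA24, had a difference of like size that did not pass. Its group means were 1258 ± 124 normalized counts with DMSO and 1925 ± 189 with Nutlin-3a under siControl, and 1289 ± 127 with DMSO and 1349.9 ± 133 with Nutlin-3a under siRFX7, so that only siControl Nutlin-3a was high. With Nutlin-3a it rose by 0.61 (log2) in siControl (standard error 0.20, DESeq2 adjusted p 0.00639) and had 0.07 in siRFX7 (95% interval -0.33 to 0.46), per the authors' deposited tables. The difference was -0.55 (standard error 0.28, adjusted p 0.327 by the z test), and its interval of -1.11 to 0.01 spans from a large change to none. For the remaining 8 hosts the difference lay between -0.25 and 0.10, with adjusted p-values of 0.302 or more. Over the 10 its median was -0.22, and 8 of the 10 values were below 0. Over all genes the median was 0.00, but over the 242 noncoding genes with a mean of at least 100 it was -0.11, and 24 of the 25 called among those were below 0.

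Several hosts lie against another gene, and the handling of strand in counting is not given in the sources used here. SNHG7 shares 1094 exonic bases with FAM69B on the opposite strand, and without strand their reads in that stretch cannot be told apart. FAM69B, at a mean of 388 normalized counts against 1353 for SNHG7, had a difference of -0.02 between its Nutlin-3a effects (standard error 0.15, adjusted p 0.98 by the z test). ZFAS1 shares 249 exonic bases with ZNFX1, an RNA-sensing helicase, which rose with Nutlin-3a by 1.28 under siControl and 1.07 under siRFX7 (log2), as given by the authors' deposited tables, where ZFAS1 was not called. With siRFX7, ZNFX1 had 0.24 in DMSO (DESeq2 adjusted p 0.01) and 0.03 in Nutlin-3a, per the authors' deposited tables, against the falls of ZFAS1. SNHG16 shares 1639 with AC015802.6, whose mean was 24.6. GAS5 overlaps ZBTB37, but in no exon of both.

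SNHG1 lies 188 bases from SLC3A2, which codes for the heavy chain of several amino acid transporters and is read from the opposite strand. Both genes fell with Nutlin-3a in siControl, SLC3A2 by 1.28 (log2, standard error 0.07, DESeq2 adjusted p 1.74e-68), as the authors' deposited table gives. With siRFX7 in DMSO SLC3A2 fell by 0.82 (DESeq2 adjusted p 4.14e-28), per the authors' deposited table, and SNHG1 fell by 0.34. The difference between Nutlin-3a effects was 0.85 for SLC3A2 (standard error 0.10, adjusted p 2.37e-14 by the z test) and 0.10 for SNHG1 (95% interval -0.06 to 0.25). SNHG8 lies 215 bases from PRSS12, which codes for the serine protease neurotrypsin. PRSS12 had -0.02 and -0.03 with Nutlin-3a in siControl and siRFX7 and rose by 0.22 and 0.21 with siRFX7 in DMSO and Nutlin-3a, as given by the authors' deposited tables. Of the 4 snoRNA rows inside hosts, SNORD99 in SNHG12 had the highest mean, 11.5 normalized counts, and none was called in a comparison that listed it. SNORD12C and SNORD30 were not listed in the siRFX7 comparisons.

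**Figure D3:**
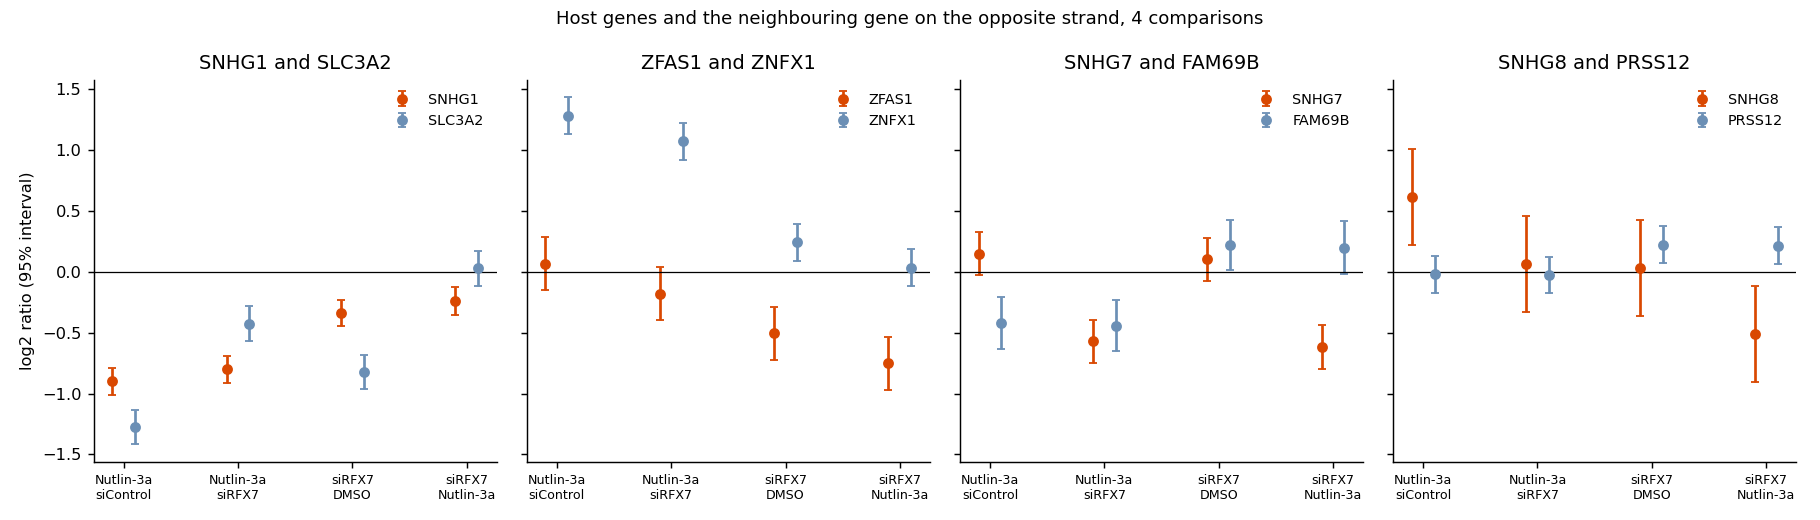
log2 fold changes with 95% intervals in the 4 deposited comparisons for 4 host genes and the neighbouring gene on the opposite strand. SNHG1 and SLC3A2 both lie below 0 for Nutlin-3a in siControl (-0.90 and -1.28), while ZNFX1 is at 1.28 where ZFAS1 is at 0.07.

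Other genes of the same pathways were described from lists written with the 10 genes. Their counts are to be read beside the shares called among all genes with a mean of at least 100. The list of further noncoding hosts does not match that level throughout. SNHG20, SNHG25, SNHG21 and SNHG22 had means of 72.0, 60.4, 17.5 and 1.57 normalized counts. With siRFX7 these were 23.4% lower and 17.1% higher in DMSO, and 19.3% lower and 19.8% higher in Nutlin-3a. With Nutlin-3a they were 32.0% lower and 33.4% higher in siControl, and 28.7% lower and 34.0% higher in siRFX7. Whether a list departs from these shares was not tested. Of 18 further noncoding hosts, 14 were listed for siRFX7 in Nutlin-3a, of which 5 fell and 0 rose, with a median of -0.14. The 5 were SNHG25 at -0.71, SNHG19 at -0.54, SNHG3 at -0.44, C6orf48 (SNHG32) at -0.41 and LRRC75A-AS1 (SNHG29) at -0.40 (log2), per the authors' deposited table. In DMSO, C6orf48 at -0.25 and LRRC75A-AS1 at -0.15 were lower and SNHG9 was higher at 0.37, as the authors' deposited table gives, with a median of -0.02 over 14. With Nutlin-3a in siControl, 4 of 15 fell and 2 rose, and in siRFX7 8 fell and 1 rose. SNHG10 had the largest fall, at -1.27 and -1.34, and EPB41L4A-AS1 rose by 0.89 in siControl, per the authors' deposited tables. LRRC75A-AS1 was the most abundant of all these hosts, at 20288 normalized counts, and rose by 0.49 under siControl and 0.25 under siRFX7, as given by the authors' deposited tables. The difference between the Nutlin-3a effects was called for EPB41L4A-AS1 at -0.70 and LRRC75A-AS1 at -0.24 (adjusted p 0.0281 and 0.0286 by the z test). Of the 15 values 14 were below 0, but 13 of the 15 were not called, and SNHG22 at -0.84 had a standard error of 1.83. In the lists below, 77 of 78 ribosomal protein genes and 16 of 16 other TOP genes were also below 0. So were 21 of 29 protein-coding hosts, 10 of 18 snoRNP proteins and 4 of 10 NMD factors.

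Among 29 protein-coding genes with snoRNAs in their introns, siRFX7 lowered 14 and raised 3 in Nutlin-3a, and lowered 8 and raised 2 in DMSO. The medians were -0.10 and -0.09, and the largest called change in Nutlin-3a was that of EEF2, a translation elongation factor, at -0.54, per the authors' deposited table. EEF2 is also on the list of other TOP genes below, so these lists overlap. With Nutlin-3a 14 of the 29 fell and 5 rose in siControl, and CWF19L1 had the largest fall at -1.74, as the authors' deposited table gives. Of all genes with a mean of at least 100, 65.5% were called in that comparison. The 78 ribosomal protein genes, which carry TOP sequences, were higher with Nutlin-3a in siControl for 47 genes and lower for 0, with a median of 0.22. With siRFX7 in Nutlin-3a 50 of them fell and 0 rose, with a median of -0.29, and in DMSO 16 fell and 1 rose. RPL13A and RPL3 had the largest falls in Nutlin-3a, at -0.89 and -0.85, per the authors' deposited table. The 16 other TOP genes listed had 12 lower and 0 higher with siRFX7 in Nutlin-3a (median -0.29), and 11 higher and 3 lower with Nutlin-3a in siControl. EIF4B and EEF1A1, which act in translation initiation and elongation, fell by 0.74 and 0.70 with siRFX7 in Nutlin-3a, as the authors' deposited table gives. The comparisons of siRFX7 in Nutlin-3a and of Nutlin-3a in siControl share the siControl Nutlin-3a libraries.

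Of 18 proteins that form or assemble snoRNPs, the particles in which snoRNAs work, siRFX7 lowered 4 and raised 0 in Nutlin-3a (median -0.04) and lowered 3 and raised 2 in DMSO (median -0.04). The largest fall in Nutlin-3a was that of FBL, the methyltransferase fibrillarin, at -0.49, per the authors' deposited table. With Nutlin-3a 9 of the 18 fell and 2 rose in siControl, with NOP58 at -0.52 and NOP56 at -0.46, as the authors' deposited table gives, both core proteins of box C/D particles. In that comparison 65.5% of all genes with a mean of at least 100 were called. Of 10 NMD factors, siRFX7 in DMSO lowered 5 and raised 2, with UPF1, the central helicase of NMD, at -0.56 and SMG5 at -0.47, per the authors' deposited table. In Nutlin-3a siRFX7 lowered 2 and raised 1 of them, with UPF1 at -0.29 and SMG6 at 0.27, as the authors' deposited table gives. Nutlin-3a lowered 3 and raised 2 NMD factors in siControl, with UPF3B at -0.50 and SMG5 at -0.38, per the authors' deposited table. In siRFX7 Nutlin-3a lowered 1 and raised 2, with UPF3B at -0.83 and SMG6 at 0.69, as the authors' deposited table gives. Of the 6 epithelial markers, 4 were lower and 1 higher with siRFX7 in Nutlin-3a, with a median of -0.33, and 2 were lower and 2 higher in DMSO. The part of these other changes in the levels of the host RNAs was not tested.

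**Figure D4:**
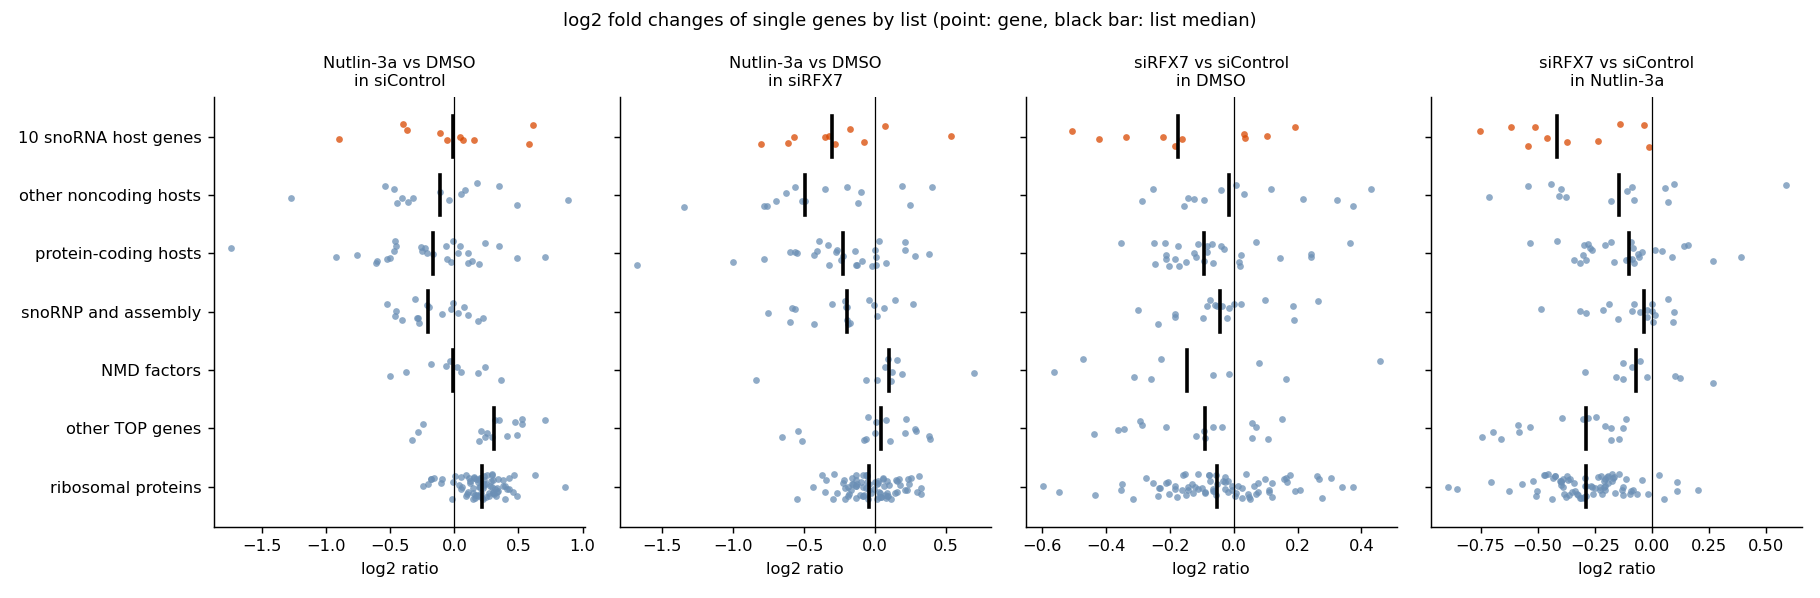
log2 fold changes of single genes (points) and list medians (black bars) in the 4 deposited comparisons, with its own axis in each panel. For siRFX7 in Nutlin-3a the medians are -0.42 for the 10 host genes, -0.29 for ribosomal proteins and -0.04 for snoRNP proteins.

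The gene with the most similar pattern to each host was taken as the nearest by Euclidean distance of log2 group means, centred over the 4 groups, among 12453 genes with a mean of at least 100. The closest match was that of GCC2 to SNHG16, at a distance of 0.00992. ZBTB25 was nearest to GAS5 (0.017), FUT11 to SNHG12 (0.0188), FOXP1 to SNHG6 (0.0223) and AKR1B1 to SNHG5 (0.0268). The pseudogenes CFL1P2, RRP7BP and AC063947.2 were nearest to SNHG15, SNHG1 and ZFAS1, and their counts are uncertain where reads are shared with a copy. SNHG7 and SNHG8 had the least close matches, TMEM256 at 0.0721 and MAN2C1 at 0.0819. Each distance was below the standard errors of the log2 differences between that host's groups, about 0.05 for SNHG16 and 0.20 for SNHG8. Which gene is nearest and the order of closeness are therefore uncertain.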

How the data were processed

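PolyA RNA from 12 HCT116 libraries was measured by the study in 4 groups of 3 replicates. The authors deposited 4 tables of DESeq2 results, and values per library were not used here. Per the submitters' processing notes, reads were handled with tools that include featureCounts 1.6.5 and DESeq2 1.20.0 on build hg38. The aligner, the annotation and the strand setting are not given in the sources used here.

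Per the file headers, 1 column holds each gene's normalized count averaged over all 12 libraries, a signal. Effects with their errors were deposited as log2 values. The Wald statistic was deposited as a score. Each deposited p-value comes with an adjusted one, which was reproducible as the Benjamini-Hochberg adjustment over the genes of its table. The direction of the siRFX7 tables was taken as siRFX7 relative to siControl, because the 4 tables then closed to within 1.27e-14, against a median error of 0.374 the other way.

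The mean normalized count was split over the groups by the deposited ratios to give group means, which takes the fitted ratios as ratios of mean normalized counts. Their standard errors were computed with a negative binomial dispersion refitted from the deposited standard errors, assuming equal size factors. For the 10 genes, refitted and deposited standard errors differed by at most 0.34%. The sums of recovered group means were 25915992 to 27407526 normalized counts. The depth of single libraries is unknown.

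Genes were called at an adjusted p below 0.05. The difference between the Nutlin-3a effects was put to a z test, two-sided, with a Benjamini-Hochberg adjustment over 23195 genes, which treats the standard errors as known. The recovery of group means and the z test were run on simulated data. The simulated standard errors were built from known dispersions by the same formula, so error in estimating a dispersion from 3 replicates was not tested. A design with edgeR was not possible without counts. Coordinates and exon lengths came from GENCODE 29 (GRCh38), which held 23164 of the 23195 gene IDs, and sequences came from RefSeq (GRCh38.p14). Alternatives were a stricter adjusted p, a minimum log2 value, other scalings and other sets of genes for the adjustment.

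The genes described and all lists were chosen with earlier results of these data known. The rule names every one of the 10 genes, RFX7, MDM2 and CDKN1A, genes within 5000 bases of one of the 10, small RNA genes inside them, the nearest gene by pattern, all other noncoding hosts, and of each further list the 2 called genes with the largest change. A neighbouring gene is not reported here. Python 3.11.15, pandas 2.3.3 and scipy 1.17.1 were used.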

Additional observations from a re-analysis of the deposited data

Results flagged for a closer look

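The Nutlin-3a effect on SNHG7 differed between the siRNAs by the z test of the difference, which was -0.72 on the log2 scale (adjusted p 1.95e-06). Outliers among replicates were not looked for, since the values are group statistics with 3 replicates in each group.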

How the results depend on the processing

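Of 30 counts of called hosts under 6 alternatives, 23 stayed within 1.5 times the reported count. With siRFX7 in DMSO the 5 hosts became 3 at an adjusted p below 0.01, 3 with scaling to equal total counts, 3 with centring on the median of genes with a mean of at least 100, and 0 with a minimum absolute log2 value of 0.58. That minimum also left 2 hosts with siRFX7 in Nutlin-3a, 2 with Nutlin-3a in siControl and 2 with Nutlin-3a in siRFX7, and by its construction removes small changes. The call for the SNHG7 difference held under all 6 alternatives. Among 100 rescaled values of single hosts, 1 changed sign, SNHG16 with siRFX7 in Nutlin-3a at a log2 value of 0.01 with scaling to equal total counts (0.013 to more digits), and 5 lost a call. The median transcript length, chosen as an alternative after seeing the data, raised all 10 levels per kb. No rescaling moved the median of genes with a mean of at least 100 by over 0.1.

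No paired analysis was possible because the files hold no values per library, and for the same reason leaving out replicates and a test on counts with edgeR were not run. The depth of single libraries is unknown, so what depth limits was not tested. SNHG8 had the largest standard errors of the 10.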
